A study of Mus musculus with 6 samples.

Results

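The genes examined here are those of the cell cycle, DNA replication and DNA repair that the deposited table of small intestinal organoids lists. They were chosen by symbol alone, as rows whose name starts with a prefix such as Cdk, Cdc, E2f, Mcm, Rad, Fanc, Parp, Cenp or Plk, and 14 of 1420 rows met that rule. For 10 of the 14 genes the known function is in the cell cycle or in repair. The other 4 (Cdkl3, Cdc42ep2, Parp12 and Parp14) carry such a prefix but are known mainly for other functions, and they are described separately.

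Organoids are epithelial structures that grow in gel from intestinal crypts. Their mRNA was sequenced in 3 wild type (WT) and 3 Smarcad1 knockout (KO) libraries, all on a C57BL/6 background, from about 600 organoids each, collected 5 days after the last passage. The genotype label names Vil-Cre, which acts in intestinal epithelium, whereas the growth protocol and the study's methods name ZP3-cre, which acts in the oocyte, with littermates as controls, so no driver is given to the KO group. The KO allele lacks exons that encode the ATP-binding part of Smarcad1 and comes from a single targeted mouse line, the mice were male, and their age is not given in the sources used here. The samples were called biological triplicates, but nothing states that each came from its own mouse, so that p-values may measure the spread between cultures or libraries. The table holds only genes that the authors' own test had called on these same libraries, and the p-values below describe that list and are no independent evidence.

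Cells divide by passing through a fixed order of phases. E2F factors and their pocket protein partners control the genes of DNA synthesis. Cyclin-dependent kinases drive each step and inhibitors such as p21 hold it back. Polo-like kinases act on centrosomes and stress responses, and the anaphase-promoting complex and phosphatases end mitosis. In the intestine division is restricted to crypts, where stem and transit amplifying cells renew the epithelium, and organoids keep this arrangement in crypt-like buds. Smarcad1 is a chromatin remodelling ATPase that in other systems has been tied to the processing of broken DNA ends.

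The depth inferred from the smallest step of the values was between 1.24e+07 and 1.57e+07 reads per library. Smarcad1 itself, in RPM (reads per 1000000 reads of the library), gave 105, 94.7 and 96.3 for WT against 21.7, 21.3 and 24.0 for KO, a log2 change of -2.14 (SE 0.10, limma adjusted p = 5.59e-05), in the direction of the labels.

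All 14 genes passed limma at an adjusted p of 0.05, against 99.9% of the whole table, and in all 14 the KO and WT values did not overlap, against 98.5% of the table. Neither share sets these genes apart. In KO 9 genes were lower, a direction called in 47.4% of the table, and 5 were higher, against 52.5% (3 without KO replicate 2, where 80.1% of the table passed in either direction). For E2f5 and Cdc16, counted as higher, the direction turned once a trend with transcript length was removed. The median log2 change of the 14 genes was -0.44, beside 0.38 over all listed genes. The smallest change of any listed gene was 0.28 in size. With small changes absent, such a signed median, here and below, mainly shows which direction holds more genes. Regardless of direction, the median size of the changes was 0.53 on the log2 scale, beside 0.64 over all listed genes. Their sizes ran from 0.31 to 1.0. Only Cdkl3 reached a change of 1, a size met by 27.1% of the table. The exact permutation test gave p = 0.1 for each gene, two-sided, which is the smallest that 3 against 3 libraries allow. Since these are bulk samples, fewer cells of a type and less RNA per cell cannot be told apart.

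**Figure D1:**
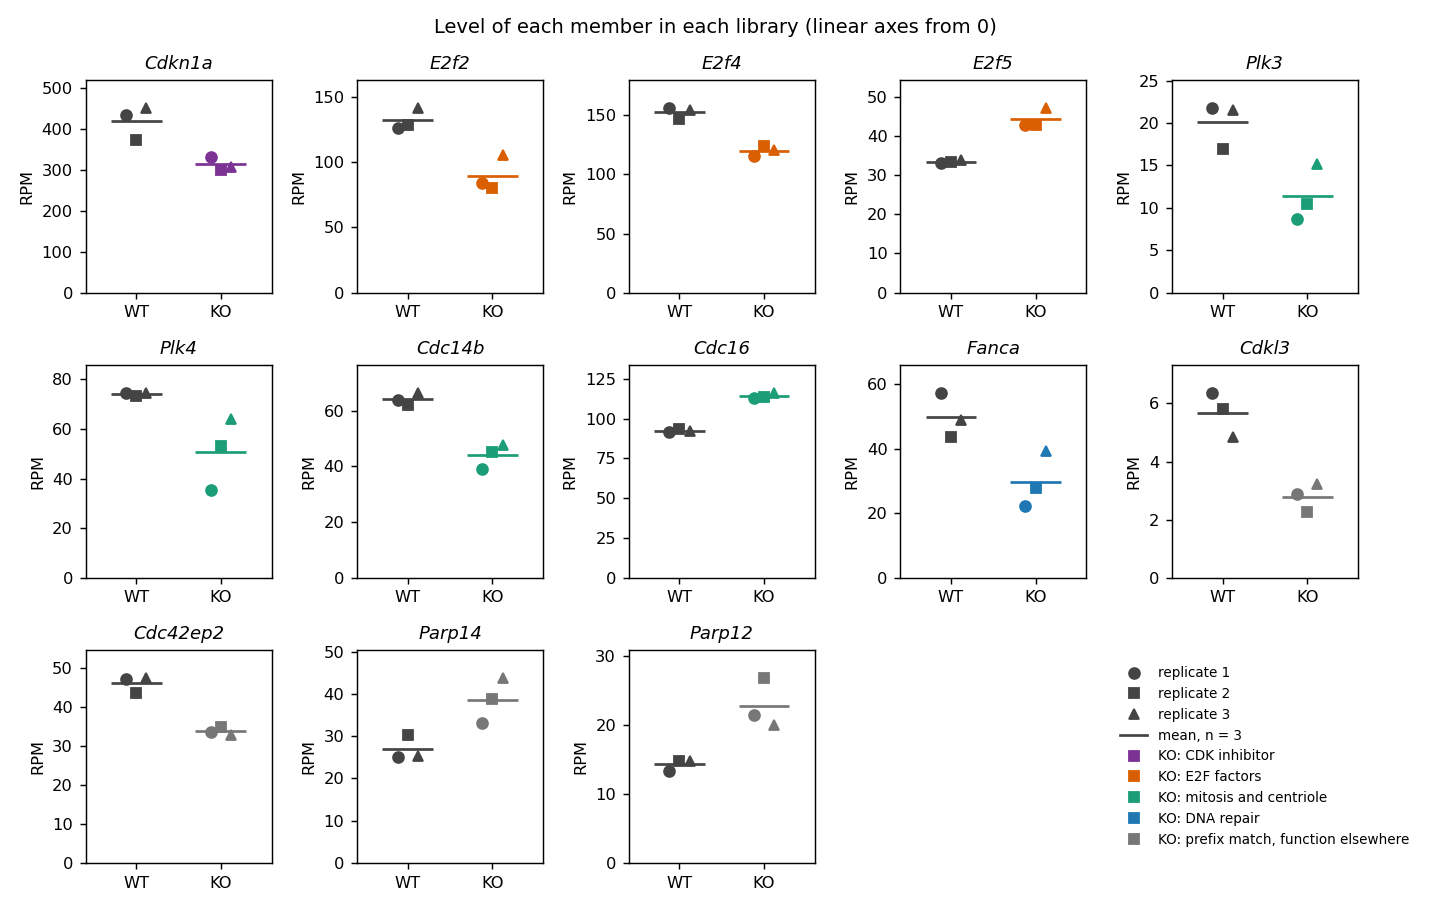
RPM of each of 13 of the 14 genes in each library, on linear axes from 0, with WT in dark grey, KO coloured by role, symbols for the replicate number and lines for the mean (n = 3). In every panel the 3 KO values lie on one side of the 3 WT values; Plk4, Plk3 and Fanca have the most scattered KO values.

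Many parts of the replication and mitosis machinery had no gene in the table. The annotation holds 235 protein-coding genes that meet the naming rule, and 14 of them (5.96%) were listed, close to the 6.08% of all 21924 protein-coding genes, which include genes that organoids do not express. None of the 12 Mcm genes, which include the subunits of the replicative helicase, and none of the 6 Orc genes of the origin recognition complex was listed. The same held for 17 cyclin genes with a Ccn prefix, 13 genes of the Pola, Pold, Pole and Polq polymerase prefixes, 21 centromere genes with a Cenp prefix, 20 Rad genes and 4 Aurk genes. By contrast 3 of 8 E2f genes and 2 of 5 Plk genes were in the table. Genes outside the table were not analysed here.

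Cdkn1a encodes p21, the cyclin-dependent kinase inhibitor that p53 induces to stop the cell cycle. The gene (ENSMUSG00000023067, chromosome 17, 29090979 to 29100722, plus strand, GRCm38 as for all positions here) gave 435, 375 and 453 RPM in WT, against 332, 301 and 308 RPM in KO. It was the most abundant of the 14 genes, also per length, with 118 RPM per kilobase of annotated exon in WT and 88.3 in KO. Each KO library lay below each WT library, and the fall left 74.5% of the WT mean. The log2 change was -0.42 (SE 0.11, limma adjusted p = 0.0124). A transcript of unclassified type on the other strand shares 7.68% of its exon bases.

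The E2F family moved in both directions. E2f2 encodes an activator of genes for DNA synthesis, while E2f4 and E2f5 encode factors that mostly repress such genes together with pocket proteins in resting cells. E2f2 (ENSMUSG00000018983, chromosome 4, 136172394 to 136196057, plus strand) was at 126, 128 and 142 RPM in WT and at 83.6, 80.0 and 105 RPM in KO. Its mean fell from 132 ± 8.41 to 89.6 ± 13.6 RPM (SD, n = 3 each), to 67.8% of WT (log2 change -0.57, SE 0.14, limma adjusted p = 0.0087). E2f4 (ENSMUSG00000014859, chromosome 8, 105297663 to 105305370, plus strand) fell more evenly. It was at 157, 146 and 154 RPM in WT and at 116, 124 and 121 RPM in KO, and the log2 change was -0.34 (limma, adjusted p = 0.0124). Without WT replicate 1 its adjusted p-value was 0.0507 in limma. E2f5 (ENSMUSG00000027552, chromosome 3, 14578641 to 14606309, plus strand) was higher instead, at 33.0, 33.3 and 33.7 RPM in WT and at 42.7, 42.8 and 47.2 RPM in KO. Its log2 change of 0.40 passed limma (adjusted p = 0.0084), but was -0.05 (adjusted p = 0.698) once a trend of the values with transcript length was removed, so that its direction depends on that step. 1810022K09Rik on the other strand shares 1.46% of the E2f5 exon bases. With that trend removed E2f2 changed by -0.57 and E2f4 by -0.74. Per kilobase of exon E2f4 was the most abundant of these family members in both groups, with 62.1 RPM in WT and 49.0 in KO. E2f2 had 27.1 and 18.4 and E2f5 had 18.7 and 24.8 RPM per kilobase, before any removal of the length trend.

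**Figure D2:**
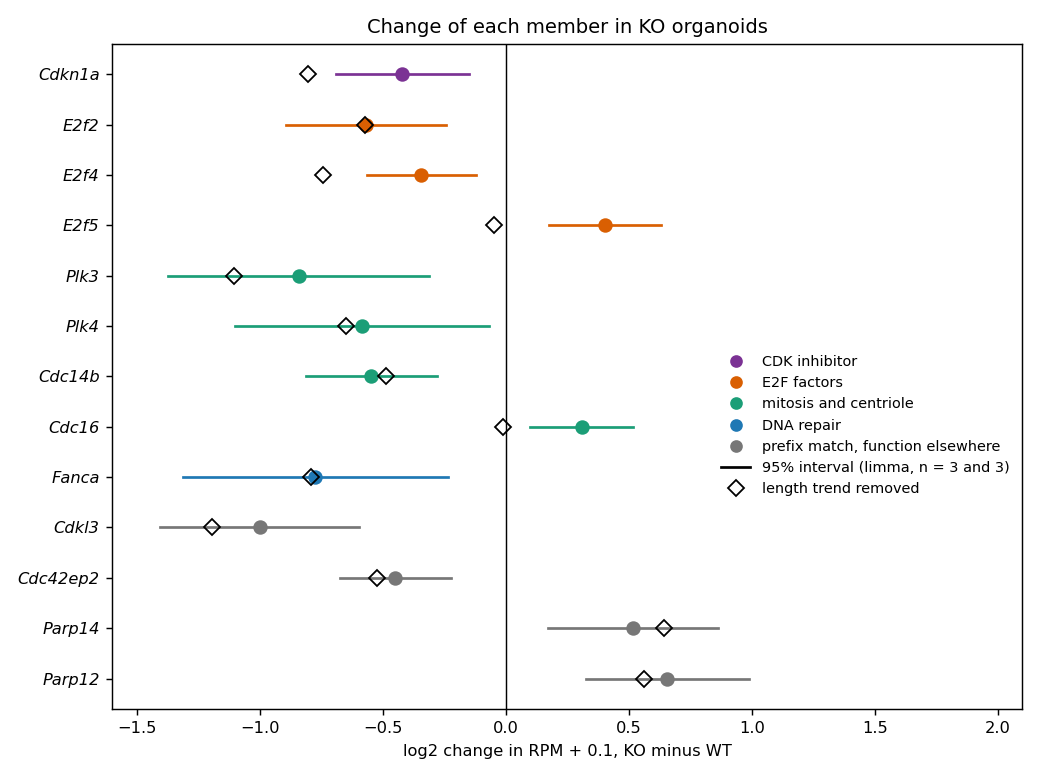
Log2 change in RPM + 0.1 (KO minus WT) of 13 of the 14 genes, grouped by role, with 95% intervals from limma (n = 3 and 3) as lines and the change after removal of the transcript length trend as open diamonds. The diamonds of E2f5 and Cdc16 lie at -0.05 and -0.01, next to zero and across it from their filled points, and the other 11 stay on their side.

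E2F factors bind short GC-rich elements in the promoters of their targets, E2f2 among them. RefSeq promoter windows of 250 bases before to 50 after the start (GRCm38.p6) were at hand for 9 of the 14 genes. They were searched on both strands for the E2F core (the letters TTCCCGC, the variant TTCGCGC, the variant TTGCCGC or the variant TTGGCGC), for TTTGAA, the core of the cell cycle homology element, and for the CCAAT box, spelled as its name. An E2F core was found for E2f2 and Plk4 (22.2% of 9 genes, against 10.9% of 27025 genes with such windows). The cell cycle element occurred only in a window of E2f2, at a second annotated start (11.1% against 20.2%). A CCAAT box was found for 4 genes, E2f2, Fanca, Cdc14b and Cdc42ep2 (44.4% against 41.1%). These matches are descriptions of the windows and not binding sites. The windows of E2f2 at its first start and of Plk4 are shown because both genes fell in KO and hold an E2F core. Both run 5′ to 3′ on the plus strand, the first from chr4:136172024-136172323 and the second from chr3:40799701-40800000, and capitals mark the matched letters. In E2f2 the E2F core begins 41 bases after the RefSeq start and a CCAAT box 13 bases before it, while in Plk4 the E2F core reads on the opposite strand and begins 120 bases before the RefSeq start.
E2f2: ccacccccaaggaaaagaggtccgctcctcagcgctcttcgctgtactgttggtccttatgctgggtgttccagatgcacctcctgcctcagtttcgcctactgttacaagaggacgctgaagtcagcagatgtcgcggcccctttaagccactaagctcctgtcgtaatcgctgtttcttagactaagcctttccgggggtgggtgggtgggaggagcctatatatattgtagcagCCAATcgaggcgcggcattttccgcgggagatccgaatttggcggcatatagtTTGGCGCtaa
Plk4: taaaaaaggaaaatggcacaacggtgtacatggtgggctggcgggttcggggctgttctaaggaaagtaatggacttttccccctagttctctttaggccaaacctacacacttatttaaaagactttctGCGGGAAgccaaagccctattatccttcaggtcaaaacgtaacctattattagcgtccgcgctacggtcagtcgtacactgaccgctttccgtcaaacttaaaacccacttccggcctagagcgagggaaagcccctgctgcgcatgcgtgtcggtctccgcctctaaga

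Plk4 encodes the polo-like kinase that starts centriole duplication. The gene (ENSMUSG00000025758) spans chromosome 3, 40800019 to 40816883, plus strand. The WT libraries were nearly identical at 74.5, 73.2 and 74.7 RPM, whereas the KO libraries spread over 35.4, 52.98 and 64.2 RPM. KO replicate 3 was at a level close to WT and KO replicate 1 far below it, a KO coefficient of variation of 28.5% beside 1.10% for WT. The log2 change was -0.58 (SE 0.22, limma adjusted p = 0.0325). The limma adjusted p-value of Plk4 ran from 0.0594 to 0.0745 when WT replicate 1, 2 or 3 or KO replicate 2 was left out, and the change without KO replicate 1 was -0.35.

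Plk3, a polo-like kinase linked to stress and DNA damage responses, fell by more. Plk3 (ENSMUSG00000028680, chromosome 4, 117128655 to 117133963, minus strand) was measured at 21.8, 17.0 and 21.6 RPM in WT and at 8.69, 10.4 and 15.1 RPM in KO, and 56.7% of the WT mean remained. The log2 change was -0.84 (SE 0.22, limma adjusted p = 0.0116). Tctex1d4 on the other strand shares 3.32% of its exon bases. As in Plk4, KO replicate 1 was the lowest and KO replicate 3 the highest of the KO libraries.

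Cdc14b and Cdc16 were grouped by symbol with the genes of mitosis and the centriole. Cdc14b encodes a phosphatase that opposes cyclin-dependent kinases (ENSMUSG00000033102, chromosome 13, 64189268 to 64275290, minus strand). It was at 63.8, 62.1 and 66.4 RPM in WT and at 39.1, 45.1 and 47.6 RPM in KO, which is 68.6% of the WT mean. The log2 change was -0.55 (SE 0.11, limma adjusted p = 0.00557). Cdc16 encodes a subunit of the anaphase-promoting complex, which marks cyclins for degradation (ENSMUSG00000038416, chromosome 8, 13757676 to 13781938, plus strand). It had the lowest coefficient of variation of the 14 genes in each group, at 91.3, 93.2 and 92.2 RPM in WT and 113, 114 and 116 RPM in KO. Its log2 change of 0.31 was the smallest (limma, adjusted p = 0.0146), and it was -0.01 with the length trend removed (adjusted p = 0.892). Without WT replicate 1 or KO replicate 2 the limma adjusted p-value of Cdc16 was 0.0556 or 0.0514. Of the 4 genes put in this group, 3 thus fell and 1 was higher. Plk3 is among the 3, though linked above to stress and DNA damage responses. Past the threshold were 2 of the 4 without WT replicate 1 or without KO replicate 2, where 81.6% and 80.1% of the table passed.

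Fanca was lower in KO, with KO values that spread widely. It encodes a subunit of the Fanconi anaemia core complex, which acts on DNA interstrand crosslinks (ENSMUSG00000032815, chromosome 8, 123268300 to 123318576, minus strand). It was at 57.4, 43.6 and 49.0 RPM in WT and at 22.2, 27.8 and 39.4 RPM in KO. The mean fell from 50.0 ± 6.96 to 29.8 ± 8.75 RPM (SD, n = 3 each), which on the log2 scale is -0.77 (SE 0.22, limma adjusted p = 0.0153). Between KO replicate 3 and WT replicate 2 the gap was small. Zfp276 on the other strand shares 10.5% of the Fanca exon bases, and whether the counting used the strand is not given in the sources used here.

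Among the 4 genes that share only a prefix with the cell cycle, 2 rose and 2 fell. Parp12 and Parp14 encode ADP-ribosyltransferases that interferon induces and that act in antiviral defence. Parp12 (ENSMUSG00000038507, chromosome 6, 39086410 to 39118349, minus strand) was at 13.3, 14.8 and 14.8 RPM in WT and at 21.4, 26.8 and 19.97 RPM in KO. Its rise, to 159% of the WT mean, was the largest of the 14 genes, with a log2 change of 0.66 (SE 0.14, limma adjusted p = 0.00607). Parp14 (ENSMUSG00000034422, chromosome 16, 35832874 to 35871544, minus strand) rose from 25.0, 30.2 and 25.3 RPM to 33.0, 38.8 and 43.8 RPM, a log2 change of 0.52 (limma, adjusted p = 0.0137), and Gm49730 on the same strand shares 1.18% of its exon bases. Here KO replicate 1 was nearest to WT and KO replicate 3 farthest from it, the reverse of Plk4 and Fanca. Cdc42ep2 encodes an effector of the small GTPase Cdc42 that acts on the cytoskeleton (ENSMUSG00000045664, chromosome 19, 5917556 to 5924816, minus strand). It fell from 47.3, 43.5 and 47.4 RPM to 33.5, 34.7 and 32.9 RPM, with a log2 change of -0.45 (limma, adjusted p = 0.00599). Cdkl3, a kinase related in sequence to cyclin-dependent kinases (ENSMUSG00000020389, chromosome 11, 52004221 to 52089784, plus strand), was the scarcest of the 14 genes. It was at 6.37, 5.81 and 4.83 RPM in WT and at 2.90, 2.26 and 3.22 RPM in KO, which is 33 to 46 inferred reads per KO library. The log2 change was -1.0 (SE 0.17, limma adjusted p = 0.00326), on a scale that slightly understates changes at such a level.

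Other genes of the same processes were taken from a list of 195 symbols that excludes the naming rule, and 13 of them were in the table, beside the 6.08% of all protein-coding genes. All 13 passed limma, as did 99.9% of the table, with 10 lower and 3 higher in KO (47.4% and 52.5% of the table) and a median log2 change of -0.43. The 3 higher genes were Polm, a polymerase that fills gaps in end joining, Ddb2, which recognises ultraviolet damage, and Prim1, the primase subunit. Polm rose from 24.9 ± 3.12 to 44.7 ± 3.45 RPM and Ddb2 from 28.6 ± 1.89 to 48.5 ± 5.45 RPM (SD, n = 3 each), with log2 changes of 0.84 and 0.76 (limma, adjusted p = 0.00251 and 0.00283). Prim1 rose by 0.33 on the log2 scale. The 10 lower genes are named after their values were seen, and their log2 changes lay between -0.59 and -0.39. They were Kif14, Kif4 and Prc1, which act in mitosis and cytokinesis, Nek2 and Mad1l1 of the centrosome and spindle checkpoint, Dbf4 and Rrm2, which serve the firing of origins and the supply of deoxynucleotides, Skp2, which targets cell cycle inhibitors for degradation, Rb1, the retinoblastoma pocket protein, and Rbbp8, a factor of DNA end resection. Rb1, whose product binds E2F factors, was at 188, 209 and 183 RPM in WT and at 106, 134 and 168 RPM in KO. With the length trend removed all 13 still passed, but 7 passed without WT replicate 1 and 8 without WT replicate 2, where 81.6% and 88.2% of the table passed.

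Genes that p53 can induce, which need not respond to p53 alone, were compared beside Cdkn1a. The part of p53 in their changes was not tested. Of 26 such genes on a list 5 were in the table, all past the threshold in limma like 99.9% of the table, and 4 were lower and 1 higher (47.4% and 52.5% of the table). Gdf15, a stress cytokine, fell from 34.9 ± 6.40 to 20.9 ± 4.96 RPM and Ddit4, an inhibitor of mTOR signalling, from 304 ± 10.2 to 189 ± 33.2 RPM (SD, n = 3 each), with log2 changes of -0.76 and -0.70 (limma, adjusted p = 0.0154 and 0.00588). Tigar, a regulator of glycolysis, had a log2 change of -0.60 (limma, adjusted p = 0.00512). Dcxr was higher, with KO values of 91.5, 67.5 and 51.4 RPM and a log2 change of 0.65 (limma, adjusted p = 0.0251). Ddb2, not on that list but known as a gene that p53 can induce in human cells, was higher as given above.

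**Figure D3:**
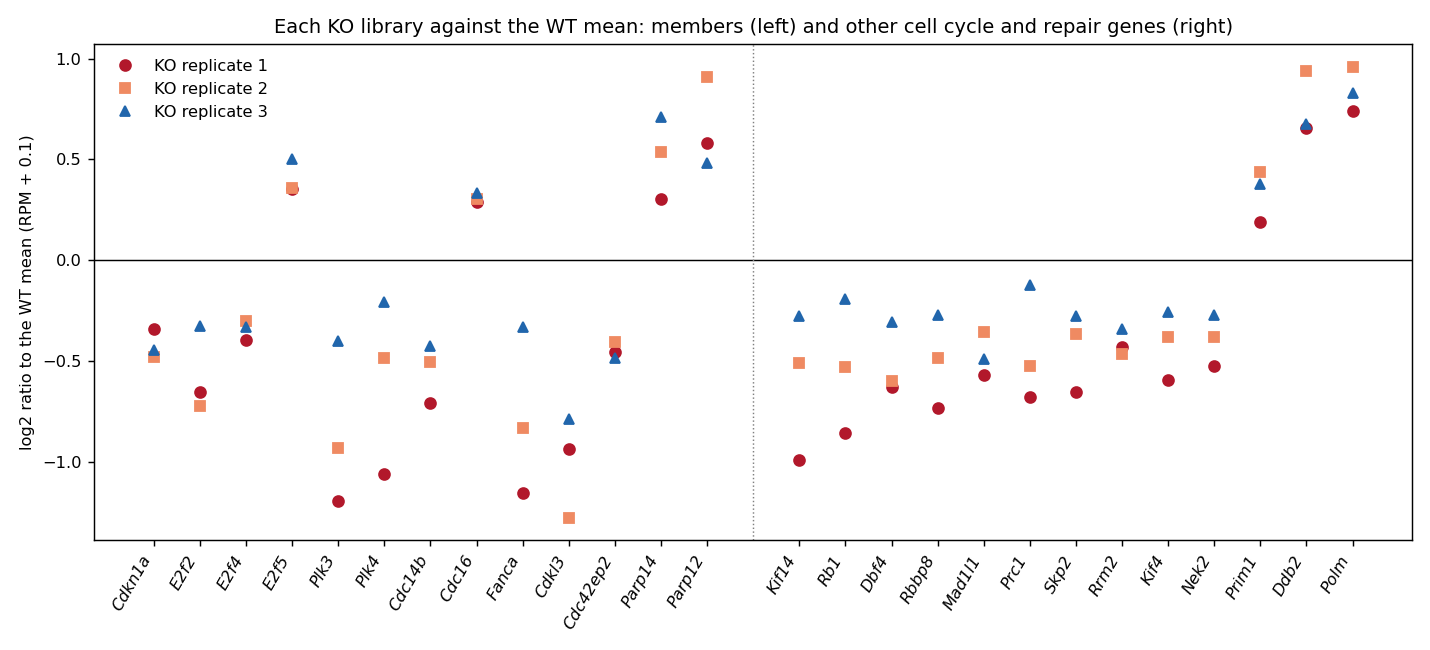
Log2 ratio of each KO library to the WT mean (RPM + 0.1) for 13 of the 14 genes (left of the dotted line) and for the 13 other cell cycle and repair genes (right), with a symbol for each KO library and zero as the WT mean. KO replicate 3 is the library nearest to WT in 6 of the 9 lower genes on the left and in 9 of the 10 lower genes on the right.

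The KO libraries differed in how far these genes lay from WT. Of the 9 lower genes KO replicate 3 was nearest to the WT mean in 6, and of the 10 lower genes of the wider list in 9. The same library was nearest in 71.6% of the 673 listed genes that were lower in KO. Of the 5 higher genes KO replicate 1 was nearest in 3 and KO replicate 3 in 2, and of the 3 higher genes of the wider list KO replicate 1 was nearest in 3, whereas KO replicate 3 was nearest in 59.7% of all listed genes that were higher. The median log2 ratio to WT of the 9 lower genes was -0.71 in KO replicate 1, -0.51 in KO replicate 2 and -0.40 in KO replicate 3. Among these, Cdkn1a, E2f4 and Cdc42ep2 did not have KO replicate 3 nearest to WT, with KO values within a narrow range. Without KO replicate 1 all 14 genes still passed limma, as did 12 of the 13 genes of the wider list and 94.9% of the table.

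Cell type markers differed between the groups as well. Of 15 Paneth cell markers 11 were in the table, beside 6.08% of all protein-coding genes. All 11 were higher in KO, a direction called in 52.5% of the table. Their summed level ran from 9466 to 10984 RPM in WT and from 19810 to 29003 RPM in KO, highest in KO replicate 1. The 4 listed goblet cell markers of 10 and the 3 listed enteroendocrine markers of 12 were higher too (52.5% of the table). Their sums were 1307 to 1418 and 194 to 237 RPM in WT and 1972 to 3428 and 324 to 441 RPM in KO. Of 12 enterocyte markers 8 were listed, 7 lower and 1 higher (47.4% and 52.5% of the table). Their sums were 13221 to 14850 RPM in WT and 8858 to 9400 RPM in KO. Rnf43 was the only stem cell marker listed of 11 and was higher, Dclk1 the only tuft cell marker of 9 and was lower, and Itgam the only immune marker of 7, at 8.55 to 10.7 RPM in WT and 2.82 to 5.83 RPM in KO. None of the 7 fibroblast and 4 endothelial markers was in the table, and no listed marker was at 0 in any library. The part of these shifts in the changes of the cell cycle and repair genes was not tested.

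Transcript length moved with the direction of change. In the shortest 25% of the listed genes with a length (up to 2072 bp) the higher genes made up 67.7%, against 41.6% for the longest 25% (from 4415 bp). In the longest 25%, E2f2 (4739 bp), Fanca (4485 bp) and Cdc14b (5859 bp) fell like most listed genes there, and in the shortest 25% E2f5 (1779 bp) was higher like most. E2f4, at 1993 bp, fell although most listed genes of its length were higher, and so did Cdkn1a at 2080 bp, Plk3 at 2512 bp and Cdkl3 at 2770 bp, in a range of lengths where 55.3% were higher. Parp14, at 7417 bp the longest of the 14 genes, rose. The falls of E2f4, Cdkn1a, Plk3 and Cdkl3 were larger with the length trend removed, at -0.74, -0.80, -1.10 and -1.20 on the log2 scale, and that of Cdc14b was smaller, at -0.49. The trend was fitted to a list that holds no unchanged genes, and the part of length in the single changes was not tested further.

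**Figure D4:**
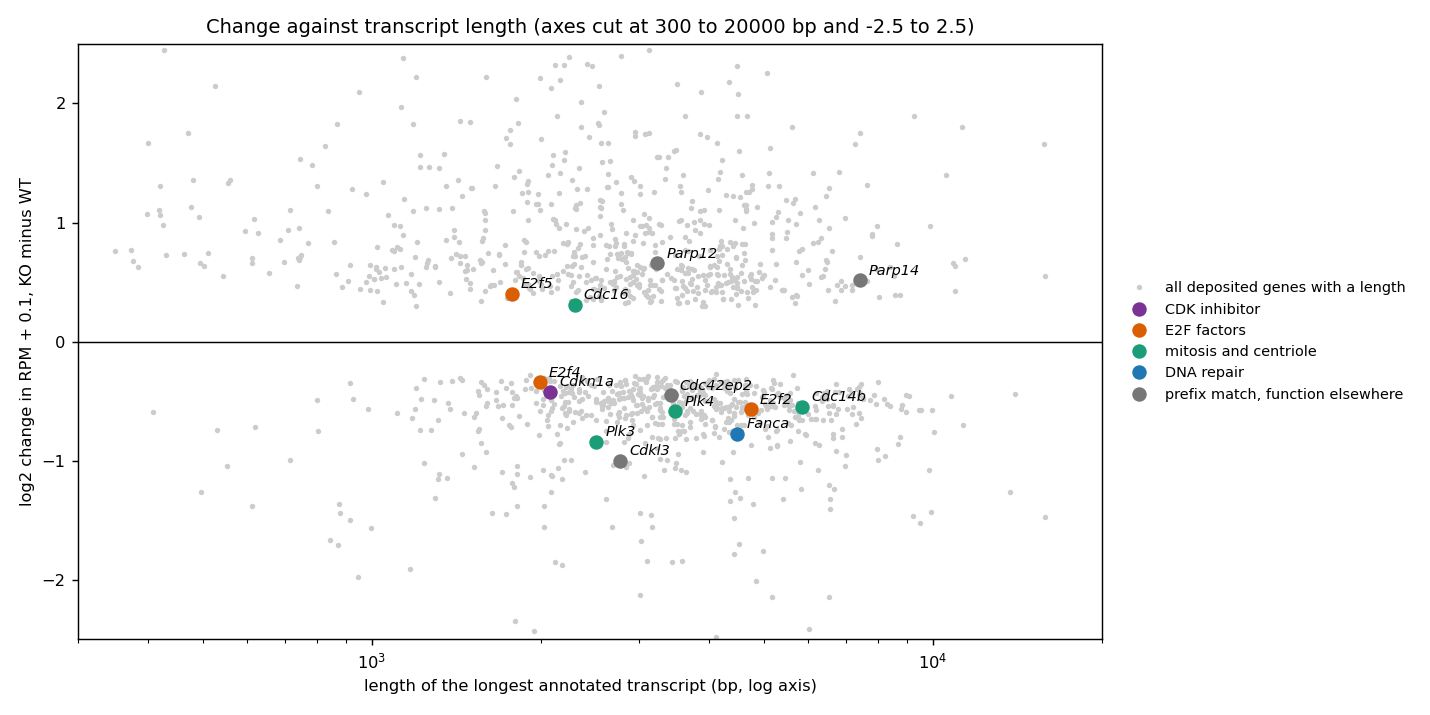
Log2 change in RPM + 0.1 (KO minus WT) against the length of the longest annotated transcript (log axis) for 1397 listed genes in light grey, of which 69 lie outside the axes, with 13 of the 14 genes coloured by role. E2f5 and Cdc16, higher in KO here but not after removal of the length trend, lie among transcripts shorter than the median, and the 9 lower genes spread from 1993 to 5859 bp.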

How the data were processed

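Strand-specific libraries of poly(A) RNA from small intestinal organoids (3 WT, 3 KO) were sequenced as paired-end reads of 50 bp. Per the submitters' processing notes reads were trimmed with Trim Galore 0.4.2 and mapped to GRCm38 with HISAT2 2.0.3. Uniquely mapped reads were then counted by the authors over exons of merged transcripts in SeqMonk and tested with DESeq2. The deposited values were scaled by the authors to RPM, reads per 1000000 reads of the library, for the 1420 genes that passed. The table also holds the authors' corrected p-values, which were not used. Each library's values (100%, tolerance 0.05) were multiples of one smallest step. That step was taken as 1 read and gave the depths and inferred reads.

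Groups and replicate numbers came from the sample titles. The two-sided test was limma 3.58.1 in R 4.3.3, with log2(RPM + 0.1) as response and genotype as its only term. P-values were adjusted by Benjamini-Hochberg across all 1420 rows, with 0.05 as the limit, and the script was tested on simulated data. Log2 changes are on this scale. Replicates differed beyond sampling noise if the smallest step is 1 read. The chi-square per degree of freedom ran from 14.8 to 22.8 in WT pairs and from 45 to 150 in KO pairs. The limma fit used a single variance per gene for both groups. Lengths, exons and overlaps came from GENCODE M21, which matched 1397 of 1420 genes by symbol and position, and the promoters from RefSeq. Exon length was summed over all annotated exons. Named in full were the 6 largest rises (5 exist) and the 6 largest falls. These came from genes whose mean RPM was at or above the lower quartile of the table. The most abundant and the most changed gene of each role were also named in full. For the wider cell cycle list and the p53 list the largest rises and falls, up to 3 each, were named, not all with their values. More genes of those lists were named after their values were seen. Of the 14 genes 1 is counted but not reported here. The members, lists and tests were chosen with earlier results of these data known.

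Alternatives were a replicate block, a pseudocount of 1, a filter that drops genes whose mean is below that quartile, median centring of the libraries, an intensity trend, removal of a loess trend with transcript length, an adjusted p-value of 0.01 and omission of single libraries. The restriction to the 10 genes with a known function in the cell cycle or repair and the alternatives for Smarcad1 were added after seeing the data.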

Additional observations from a re-analysis of the deposited data

How the results depend on the processing

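The replicate block, the intensity trend, the filter on mean RPM and the 0.01 threshold cannot alter a gene's log2 change. Under these settings only the side of the threshold was free to change. Of 180 values of single genes under the planned settings, 161 kept their direction and side of the threshold, 17 kept the direction and lost the threshold, and 2 changed direction. Those 2 came from removal of the transcript length trend, with log2 changes of -0.047 for E2f5 and -0.012 for Cdc16. This setting, under which 85.4% of the table passed, left 3 higher genes past the threshold instead of 5 and moved the median log2 change from -0.44 to -0.55. Centring of the libraries moved that median to -0.53. An adjusted p-value under 0.01, met by 59.5% of the whole table, left 6 of 14 genes, 2 higher and 4 lower, with 0 for the kinase inhibitor, 0 for repair, 1 for mitosis and the centriole, and 5 of the 13 other cell cycle and repair genes. Restricting the rule to the 10 genes with a known function in the cell cycle or repair was a choice made after seeing the data. It gave 3 higher and 7 lower, directions called in 52.5% and 47.4% of the table.

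When 1 library was left out, between 11 and 14 genes passed, 3 to 5 higher and 7 to 9 lower, while the share of the whole table that passed ran from 80.1% without KO replicate 2 to 98.9% without KO replicate 3. For single roles the counts were 1 to 2 for repair and 2 to 4 for mitosis and the centriole, and 7 to 13 of the other genes passed, with 7 without WT replicate 1 and 8 without WT replicate 2. The low counts of mitosis and the centriole were those without WT replicate 1 and without KO replicate 2, and the low count of higher genes was the latter. The cause of these shifts was not tested.

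A replicate block in the model left 14 genes past the threshold, 5 of them higher and 9 lower. It also left 13 of the other genes and 95.1% of the table, so that no call of these 14 and 13 genes changed. The median log2 change stayed at -0.44 by design, since the block cannot alter it. Deviations from the group mean of libraries that share a number correlated at -0.0839, 0.0905 and 0.0613, and the numbers were not taken as pairs. The test on whole reads was not run, because the smallest step is only assumed to be 1 read and the inferred reads were not taken as recovered counts. The filter on mean RPM dropped Plk3 and Cdkl3. For the promoter motifs, the gene's own strand alone gave 11.1% of the 9 genes for the E2F core, 11.1% for the cell cycle element and 33.3% for the CCAAT box.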
